A study of Mus musculus with 5 samples.

Results

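The immediate early genes Fos, Fosb, Jun, Junb, Jund, Egr1, Ier2, Nr4a1, Atf3 and Nfkbia, 10 in number, were followed in mouse pancreatic islet cells. They were taken by name from the gene labels of the deposited expression values, not by their measured levels, and all 10 were found among the 6626 genes shared by the 5 libraries. The cells were viable cells of dissociated islets from C57BL/6 mice, measured by inDrop, a droplet method in which a unique molecular identifier (UMI) marks each captured polyadenylated RNA molecule. The 2 postpartum libraries (postpartum 1 and postpartum 2), the 2 pregnant libraries (pregnant 1 and pregnant 2) and the 1 non-pregnant library were set against each other, since the design asks how islets of pregnancy and of the time after birth differ from those of non-pregnant females. No transgene, drug or diet is given for any group, and neither the day of pregnancy, the day after birth, the ages nor the number of animals per library is given in the sources used here.

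Immediate early genes are transcribed within minutes of a signal, from factors already present in the cell, and their mRNAs and proteins are short-lived. Fos and Jun proteins pair through leucine zippers to form AP-1, which binds DNA and regulates later genes, and in beta cells such genes answer glucose, hormones and calcium. The same genes are also well known to be induced by enzymatic dissociation of tissue, so in dissociated islets both the state of the animal and the handling of the tissue can bear on them. Nfkbia belongs to the set by its timing and not by its molecular function, because it encodes IκBα, an inhibitor that holds NF-κB in the cytoplasm and is itself a target of NF-κB. All 10 genes are annotated as protein coding. Jun overlaps the antisense gene Junos, Junb overlaps Prdx2, Jund overlaps Gm11175 and Atf3 overlaps Gm24748, and whether counting used the strand is not given in the sources used here.

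Upstream sequences of 8 of the 10 genes were matched in the RefSeq promoter table (GRCm38.p6), and Egr1 and Ier2 had no entry. The 250 bases before the RefSeq start are shown for Fos, Fosb and Nfkbia, 5′ to 3′ on the gene's strand. With Jun, whose window held none of the motifs below, these were the genes with the largest log2 differences between postpartum and pregnant 1 insulin-led cells. Capitals mark TGACG (the core of a cyclic AMP response element), TATAAA, and GGANTTTCC (a form of the NF-κB site), each searched on both strands.
Fos promoter, chr12:85473640-85473889, plus strand: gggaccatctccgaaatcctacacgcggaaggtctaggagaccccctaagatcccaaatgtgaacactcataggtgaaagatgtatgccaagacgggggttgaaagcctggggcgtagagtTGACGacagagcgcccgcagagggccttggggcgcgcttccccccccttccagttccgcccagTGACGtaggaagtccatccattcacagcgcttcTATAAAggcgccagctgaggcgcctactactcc
Fosb promoter, chr7:19310046-19310295, minus strand: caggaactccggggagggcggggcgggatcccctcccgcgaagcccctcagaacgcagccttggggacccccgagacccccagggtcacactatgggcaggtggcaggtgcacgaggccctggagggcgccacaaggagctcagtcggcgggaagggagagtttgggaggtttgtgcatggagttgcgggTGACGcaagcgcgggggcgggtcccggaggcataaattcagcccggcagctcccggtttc
Nfkbia promoter, chr12:55492648-55492897, minus strand: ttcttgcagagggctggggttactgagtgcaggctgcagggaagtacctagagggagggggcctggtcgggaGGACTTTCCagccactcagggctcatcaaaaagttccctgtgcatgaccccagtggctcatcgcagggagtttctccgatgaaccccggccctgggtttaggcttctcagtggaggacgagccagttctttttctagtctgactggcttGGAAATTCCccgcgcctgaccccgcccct
In the Fos window TGACG stood at positions -129 to -125 and -66 to -62 from the start, and TATAAA at -33 to -28. The Fosb window held TGACG at -60 to -56. The Nfkbia window held GGANTTTCC at -178 to -170 on the gene's strand and at -29 to -21 on the opposite strand. Over 250 bases before to 50 bases after the start, TGACG was also present for Junb, Nr4a1 and Atf3, and it was absent from the windows of Jun and Jund. Among 32851 promoters of that length, 20.8% held TGACG, 13.6% TATAAA and 1.25% GGANTTTCC. The full palindrome TGACGTCA, which contains TGACG, was in 1.79% of promoters and the AP-1 motif TGANTCA in 7.81%, and neither was in any of the 8 windows. These matches describe letters in a window and not binding.

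The libraries differed in size. They held 557 cells in postpartum 1, 1126 in postpartum 2, 1993 in pregnant 1, 164 in pregnant 2 and 847 for the non-pregnant library, with 134957, 710529, 1136444, 14933 and 2561319 UMIs in that order. Median UMIs per cell were 215, 517, 481, 81 and 2553. Pregnant 2 stood apart: its median cell had 9 detected genes other than hormones, against 77 to 763 in the other libraries. Where a gene other than a hormone was detected in one of its cells, 21.8% of cases carried 10 or more UMIs, against at most 0.770% in any other library, so its counts may not each be 1 molecule. The non-pregnant values were deposited on another scale and with a longer feature list than the other 4 libraries, so the non-pregnant state and the making of its values cannot be told apart. Cells were deposited under running numbers, so shared barcodes could not be counted, and no 2 cells had the same profile, within or between libraries.

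Cells were classed by the largest of Ins1 plus Ins2, Gcg, Sst and Ppy. Insulin-led cells numbered 402 in postpartum 1, 896 in postpartum 2, 1773 in pregnant 1, 121 in pregnant 2 and 680 for the non-pregnant library. Glucagon-led cells numbered 123, 179, 141, 23 and 94 in the same order. In insulin-led cells all 10 listed beta-cell markers were detected in every library other than pregnant 2, in which Pdx1, Nkx6-1, Slc2a2 and Slc30a8 were at 0. The 6 acinar markers summed to 558 and 418 UMIs per 1000000 in the postpartum insulin-led cells, 15.5 in pregnant 1, 3073 in pregnant 2 and 436 in non-pregnant cells. The 2 measured ductal markers of 5 summed to 50.7, 157, 792, 181 and 741 in library order, the 3 measured delta-cell markers of 4 to 578, 1319, 2933, 452 and 6667, the 3 measured gamma-cell markers of 4 to 3600, 6674, 20741, 3344 and 14816, and the 7 alpha-cell markers to 7160, 12440, 19293, 3615 and 14233. All marker sums here are per 1000000 UMIs with hormones included. On this scale ductal, delta, gamma and alpha markers were lower in both postpartum libraries than in non-pregnant cells and those of pregnant 1. Set against non-hormone UMIs, alpha markers of postpartum 2 were not lower. They had 6988 UMIs beside 194052 non-hormone UMIs, against 18702 beside 525123 in pregnant 1 and 25519 beside 1087584 in non-pregnant cells. Alpha markers of postpartum 1 stayed lower, as did ductal, delta and gamma markers of both postpartum libraries. The 6 endothelial markers summed to 243, 251, 264, 0 and 443, and the 4 measured macrophage markers of 8 to 233, 317, 261, 0 and 172. Markers of mesenchymal, Schwann, T or NK, B, neutrophil and erythroid cells are not among the shared genes, so those cells could not be looked for. The part of other cell types in the results below was not tested. Gcg, which beta cells should lack, took 0.648%, 1.14%, 1.81%, 0.362% and 1.31% of the UMIs of insulin-led cells. Free RNA of this very abundant transcript and barcodes with more than 1 cell can both give such counts, and they were not told apart.

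Summed over the 10 genes, insulin-led cells of the postpartum libraries devoted at least 1.07% of their non-hormone UMIs to immediate early transcripts, and those of the other libraries at most 0.191%. The level of a gene was its UMIs per 1000000 non-hormone UMIs (CPM), pooled over the cells of a class in a library. The summed level was 10699.9 CPM in postpartum 1 and 11909 CPM in postpartum 2, against 1335 CPM in pregnant 1, 1745 CPM in pregnant 2 and 1909.7 CPM in non-pregnant cells. The pregnant 2 value rested on 12 UMIs, with an exact counting interval of 902 to 3049 CPM. Both postpartum libraries lay above the other 3. In pregnant 2 a count of 0 allowed up to 436 CPM for a single gene, against 76.2 CPM in postpartum 1 and 15.5, 5.71 and 2.76 CPM in postpartum 2, pregnant 1 and the non-pregnant library. Intervals and such limits cover counting error only.

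**Figure D1:**
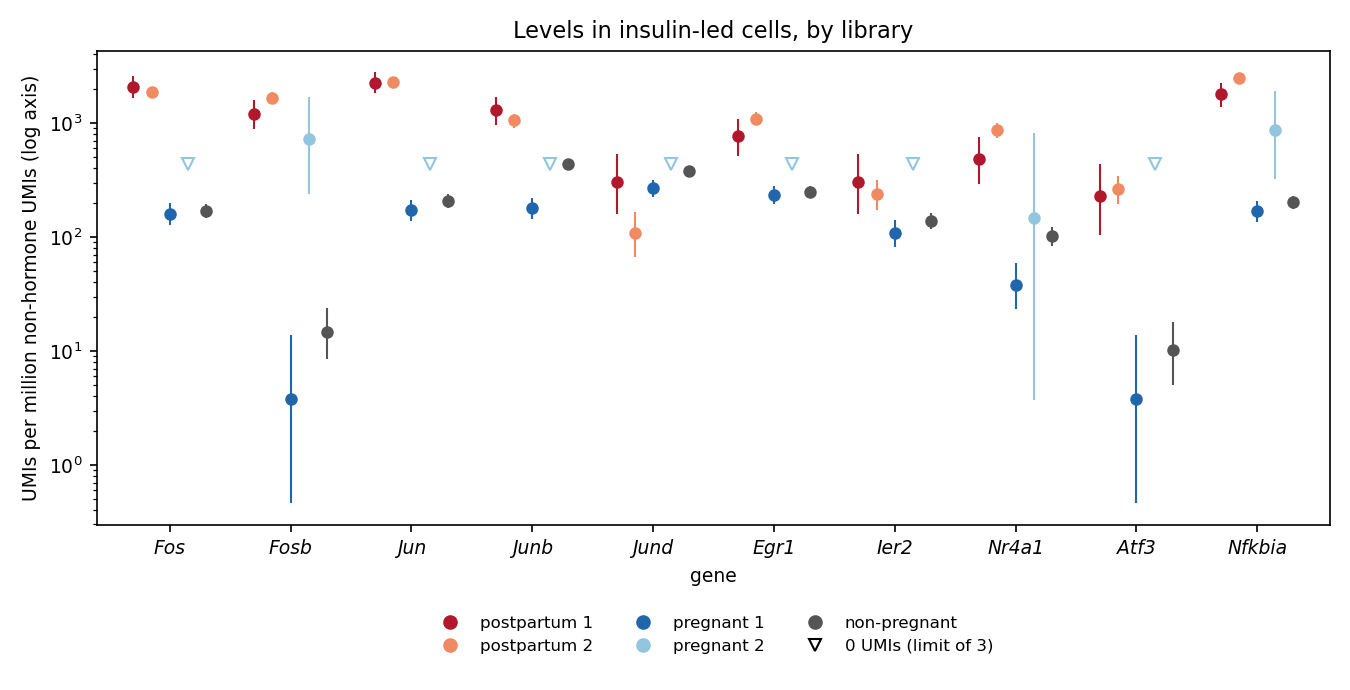
Level of each immediate early gene in insulin-led cells, in UMIs per 1000000 non-hormone UMIs on a log axis, with 1 point per library, exact 95% counting intervals as bars and open triangles at the limit that 0 UMIs allow. The postpartum points lie above those of pregnant 1 and the non-pregnant library for 9 of the 10 genes, Jund being the exception; for Ier2 and Atf3 they lie below the limit of pregnant 2.

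Fos, an AP-1 subunit, was detected with 82 and 362 UMIs in the postpartum insulin-led cells, at 2084 and 1865 CPM. It stood at 159.96 CPM in pregnant 1, at 0 UMIs in pregnant 2 and at 169 CPM in non-pregnant cells. Pregnant 1 and the non-pregnant library did not differ beyond counting error (ratio 0.946, interval 0.722 to 1.23), and both postpartum libraries were above them by 11-fold to 13-fold.

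Fosb, a close relative of Fos, had 1195 CPM (47 UMIs) in postpartum 1 and 1665 CPM (323 UMIs) in postpartum 2. In the other libraries it was nearly undetected, with 2 UMIs in 1773 cells of pregnant 1 (3.81 CPM) and 16 UMIs in 680 cells of the non-pregnant library (14.7 CPM). The 5 Fosb UMIs of pregnant 2 (727 CPM) all came from 1 cell. Of all 10 genes Fosb had the widest postpartum-to-pregnant ratio: 314-fold in postpartum 1 over pregnant 1 (interval 82.1 to 2666) and 437-fold in postpartum 2 (interval 120 to 3624), where the pregnant count was 2.

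Jun, the main AP-1 partner of Fos, reached 2262 and 2273 CPM in the postpartum insulin-led cells, against 171 CPM in pregnant 1, 0 UMIs in pregnant 2 and 207 CPM in non-pregnant cells. The postpartum libraries differed by less than their counting error and lay 10.9-fold to 13.3-fold above pregnant 1 and the non-pregnant library. Junb, a relative of Jun, had 1296 and 1051 CPM postpartum, 179 CPM in pregnant 1, 0 UMIs in pregnant 2 and 439.5 CPM in non-pregnant cells. Its margin over the non-pregnant library was smaller, at 2.95-fold (2.16 to 3.94) and 2.39-fold (2.02 to 2.82), and pregnant 1 lay below the non-pregnant library (ratio 0.407, interval 0.323 to 0.509). Jund, the Jun relative that is expressed without stimulation, had 305 and 108 CPM postpartum, 269 CPM in pregnant 1, 0 UMIs in pregnant 2 and 379 CPM in non-pregnant cells. Its postpartum values fell on both sides of the pregnant 1 value and below the non-pregnant one, so the groups overlapped.

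Egr1, a zinc finger factor induced by MAP kinase signalling, had 762 and 1092 CPM postpartum, 234 CPM in pregnant 1, 0 UMIs in pregnant 2 and 249 CPM in non-pregnant cells. Nr4a1, an orphan nuclear receptor, had 483 and 866 CPM postpartum, 38.1 CPM in pregnant 1, 145 CPM from 1 UMI in pregnant 2 and 101 CPM in non-pregnant cells. In the postpartum libraries Egr1 stood higher by 3.06-fold to 4.66-fold and Nr4a1 by 4.77-fold to 22.7-fold, over pregnant 1 and the non-pregnant library. Nr4a1 was also lower in pregnant 1 than in non-pregnant cells (ratio 0.377, interval 0.221 to 0.610). Ier2, a small nuclear protein with the same rapid kinetics, had 305 and 237 CPM postpartum, 109 CPM in pregnant 1, 0 UMIs in pregnant 2 and 138 CPM in non-pregnant cells. Its margins were small, between 1.72-fold and 2.81-fold.

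Atf3, a stress-induced factor of the ATF family, had 229 CPM (9 UMIs) and 263 CPM (51 UMIs) postpartum, 3.81 CPM in pregnant 1 (2 UMIs), 0 UMIs in pregnant 2 and 10.1 CPM in non-pregnant cells (11 UMIs). Like Fosb it was close to undetected outside the postpartum libraries, with ratios of 22.6 (8.28 to 60.0) and 26.0 (13.4 to 55.3) to the non-pregnant library. Nfkbia had 1779 and 2489 CPM postpartum, 168 CPM in pregnant 1, 873 CPM in pregnant 2 (6 UMIs in 2 cells) and 202 CPM in non-pregnant cells. It was 8.80-fold to 14.9-fold above pregnant 1 and the non-pregnant library, margins like those of Fos and Jun.

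The test across libraries depended on pregnant 2 and on the filter on low levels. With all 5 libraries the limma test, adjusted by the Benjamini-Hochberg method over 2198 genes, called 2 genes between postpartum and pregnant insulin-led cells (0.091% of those tested) and 0 of the 10 immediate early genes. At an unadjusted p under 0.05 it held 5 of the 10, and edgeR and DESeq2 on recovered UMIs also called 0 of 10. The log2 differences, postpartum minus pregnant, were 3.68 ± 1.24 (SE) for Fos, 3.85 ± 1.24 for Jun, 2.92 ± 1.24 for Junb and 2.37 ± 1.24 for Fosb, with adjusted p = 0.546, 0.42, 0.831 and 0.831. All 10 differences were above 0, with a median of 2.24, beside a median of 0.55 over all genes tested. All 10 passed the filter, 100 CPM on average over the libraries. Fosb, Nr4a1 and Atf3 averaged 9.26, 69.6 and 6.96 CPM over pregnant 1 and the non-pregnant library, so without pregnant 2 they passed only through the postpartum libraries.

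Without pregnant 2, when pregnant 1 alone stood for pregnancy, limma called 8 of the 10 genes higher in postpartum insulin-led cells with the filter and 0 without it. With the filter 2.44% of 2462 genes were called in either direction and 1.67% were called higher. Fosb, which passed the filter only through the postpartum libraries, differed by 3.86 ± 0.46 on the log2 scale after adding 100 CPM. Jun differed by 3.12 ± 0.46, Nfkbia by 3.04 ± 0.46 and Fos by 2.99 ± 0.46. Junb (2.18 ± 0.46) and Egr1 (1.60 ± 0.46) were called as well. So were Nr4a1 (2.44 ± 0.45) and Atf3 (1.73 ± 0.52), which like Fosb passed the filter only through the postpartum libraries. Ier2 (0.83 ± 0.44, adjusted p = 0.517) and Jund (-0.34 ± 0.45, adjusted p = 0.935) were not. Without the filter limma called 0% of 6619 genes (284 at an unadjusted p under 0.05) and 0 of the 10 (8 at an unadjusted p under 0.05). The differences were the same, with adjusted p = 0.105 for Fos, Fosb, Jun and Nfkbia, 0.276 for Junb and Nr4a1, 0.422 for Atf3 and 0.697 for Egr1. The median over the 10 genes was 2.31, beside -0.08 over all genes without the filter. Of the 8 genes, Fosb, Nr4a1 and Atf3 were in the filtered fit only through their postpartum levels, so their calls there do not count as support. The added 100 CPM holds down the differences of low genes such as Fosb and Atf3. The filtered fit had 1 residual degree of freedom, from postpartum 1 and postpartum 2 alone. Its errors were set by the trend over all genes, as they were with all libraries.

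Against the non-pregnant library Fosb, Jun, Fos and Nfkbia again had the widest differences of the 10 in insulin-led cells. With all libraries limma called 0.318% of 2198 genes and 0 of the 10, with 2 of the 10 at an unadjusted p under 0.05 and 0 by edgeR and by DESeq2. Without pregnant 2, 7 of the 10 were called higher postpartum, where 6.46% of 2462 genes were called in either direction and 2.92% higher. They were Fosb (3.72 ± 0.46, adjusted p = 2.88e-13), Jun (2.95 ± 0.46, 2.02e-08), Fos (2.94 ± 0.46, 2.82e-08), Nfkbia (2.87 ± 0.46, 5.50e-08), Nr4a1 (1.90 ± 0.45, 0.000896), Atf3 (1.65 ± 0.52, 0.0252) and Egr1 (1.54 ± 0.46, 0.018). Without the filter 0.438% of 6619 genes were called, and 4 of the 10 among them: Fosb (adjusted p = 0.0289), and Fos, Jun and Nfkbia (0.0399 each). Nr4a1 (0.223), Atf3 (0.2) and Egr1 (0.319) then missed the threshold. In the filtered fit Junb missed it (1.23 ± 0.46, adjusted p = 0.0939), and Ier2 (0.63 ± 0.44, 0.609) and Jund (-0.72 ± 0.45, 0.532) did too. Here too Fosb, Nr4a1 and Atf3 passed the filter only through the postpartum libraries, so their calls in the filtered fit do not count as support. Both comparisons share the postpartum libraries and so are not independent. Leaving out pregnant 2 changes no postpartum or non-pregnant value, and the differences to the non-pregnant library were therefore the same in both fits, with only the estimated spread changed.

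Both postpartum libraries lay above pregnant 1 and the non-pregnant library for 9 of the 10 genes, Jund being the exception. Of 6619 genes, 16.6% did so.

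**Figure D2:**
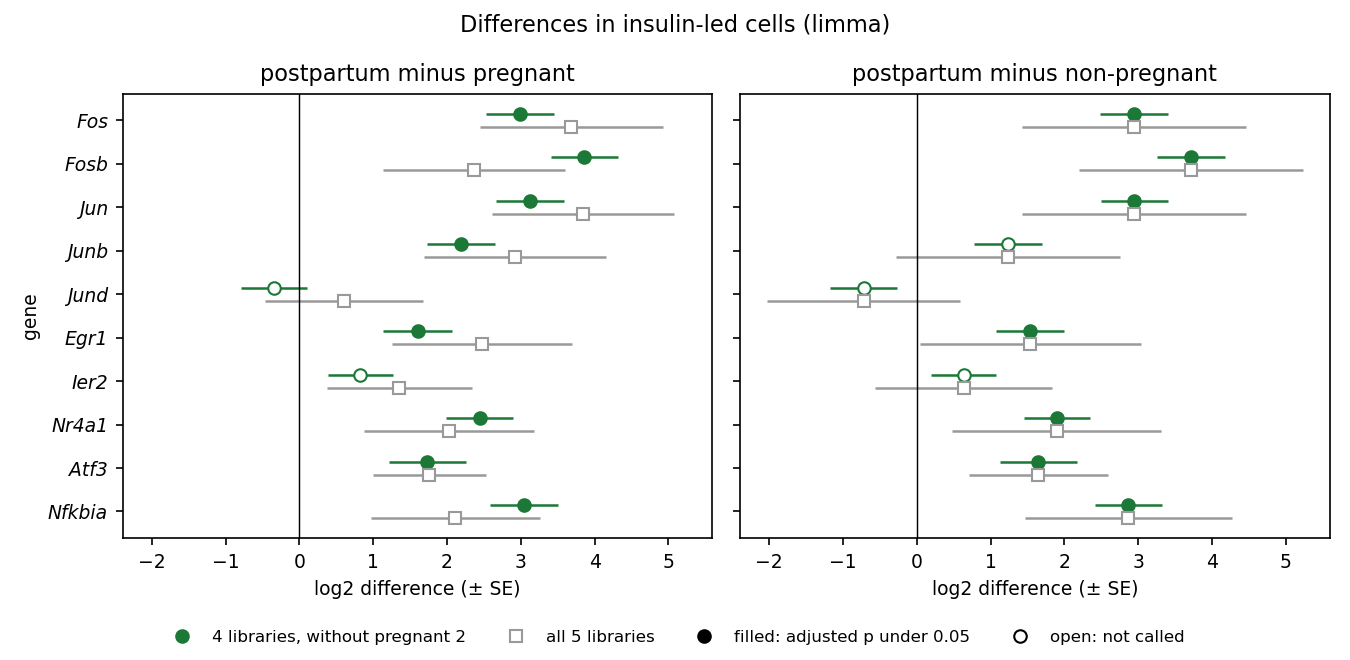
Log2 differences of the 10 genes in insulin-led cells on the log2(CPM + 100) scale, as circles without pregnant 2 and as squares with all 5 libraries. Bars are standard errors, and points are filled where limma's adjusted p was under 0.05 in the filtered fit. Without pregnant 2, Fosb lies highest in both postpartum comparisons, at 3.86 over pregnant 1 and 3.72 over the non-pregnant library, and Jund lies below 0 in both. With all 5 libraries no point is filled. Over the pregnant libraries Fosb then lies below Jun, Fos and Junb, and Jund lies above 0.

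Between pregnant and non-pregnant insulin-led cells none of the 10 genes was called by limma, with or without pregnant 2, and 0 of 10 reached an unadjusted p under 0.05 in either fit. The share of all genes called was 0.136% with all libraries and 1.95% without pregnant 2, and edgeR and DESeq2 called 0 of the 10. Without pregnant 2 all 10 differences were below 0, with a median of -0.18 beside 0.02 over all genes. The widest was that of Junb, at -0.95 ± 0.53 (adjusted p = 0.998), and that of Fos was -0.05 ± 0.53. With errors of this size a change of about 1 on the log2 scale was not detectable.

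Glucagon-led cells, the alpha-cell class, likewise had their highest summed levels in the postpartum libraries. Their summed level was 15356 and 14699 CPM postpartum, 2158 CPM in pregnant 1, 722 CPM from 1 UMI in pregnant 2 and 3297 CPM in non-pregnant cells. Fosb had 1811 and 2738 CPM postpartum, 0 UMIs in either pregnant library and 8.16 CPM (1 UMI) in non-pregnant cells. Nfkbia had 3701 and 3541 CPM postpartum, 246 CPM in pregnant 1, 0 UMIs in pregnant 2 and 294 CPM in non-pregnant cells. Fos had 1969 and 1729 CPM postpartum, 191 CPM in pregnant 1, 0 UMIs in pregnant 2 and 449 CPM non-pregnant. For these 3 genes both postpartum libraries lay above pregnant 1 and the non-pregnant library. In pregnant 2 a count of 0 in this class allowed up to 2165 CPM, which both postpartum values exceeded for Nfkbia, 1 of them for Fosb and neither for Fos.

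In glucagon-led cells limma called none of the 10 genes in any comparison. Of 1869 genes with all libraries it called 0.0535% between postpartum and pregnant, 0.214% between postpartum and non-pregnant and 0.107% between pregnant and non-pregnant. Without pregnant 2 it called 0.0434%, 0.174% and 0.13% of 2304. At an unadjusted p under 0.05 it held 4, 3 and 0 of the 10 with all libraries, and 8, 7 and 0 without pregnant 2, while edgeR with all libraries called 0 in each. The differences were nevertheless of the size seen in insulin-led cells: without pregnant 2, postpartum minus pregnant, Fosb differed by 4.54 ± 0.55 and Nfkbia by 3.43 ± 0.44, each with adjusted p = 0.107. Nr4a1 differed by 3.17 ± 0.53 (adjusted p = 0.119) and Fos by 2.74 ± 0.48 (adjusted p = 0.127). The median of the 10 was 2.35, beside -0.06 over all genes. In this class Fosb, Nr4a1 and Atf3 had at most 1 UMI in pregnant 1 and at most 3 in the non-pregnant library. Without pregnant 2 they passed the filter only through the postpartum libraries. Their p-values in both postpartum comparisons therefore do not count as support. Postpartum minus non-pregnant, the nearest to the threshold were Fosb (4.43 ± 0.55) and Nfkbia (3.24 ± 0.44), each with adjusted p = 0.0516.

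Between glucagon-led and insulin-led cells of the same library none of the 10 genes passed the test. The mean difference, glucagon-led minus insulin-led, was above 0 for 7 of the 10 with all libraries and for 9 without pregnant 2. Fos was slightly lower in glucagon-led cells of both postpartum libraries. These values lay within the counting intervals of the insulin-led levels (1658 to 2587 CPM in postpartum 1 and 1678 to 2068 CPM in postpartum 2). Jund had 630.0 and 329 CPM in glucagon-led cells of the postpartum libraries, 409.8 CPM in pregnant 1 and 530.5 CPM in non-pregnant cells, each above the insulin-led value of that library. Nfkbia was likewise higher in glucagon-led cells of those 4 libraries. Within libraries, limma called 0 of 2133 genes between the classes (0% of those tested, 266 at an unadjusted p under 0.05), and 1 of the 10 reached an unadjusted p under 0.05. Without pregnant 2 it called 8.09% of 2397 genes and 0 of the 10, with 5 at an unadjusted p under 0.05, and Jund came nearest (0.69 ± 0.22, adjusted p = 0.0662). The median of the 10 was 0.29 with all libraries, beside -0.18 over all genes, and 0.49 without pregnant 2, beside -0.08. Whether the postpartum-to-pregnant difference itself differed between the classes was tested as well: limma called 0% of 2133 genes with all libraries (33 at an unadjusted p under 0.05) and 0.0417% of 2397 without pregnant 2, and 0 of the 10 in either fit. Ier2 had the difference with the smallest unadjusted p, at -1.39 ± 0.70 (adjusted p = 0.949).

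Somatostatin-led and pancreatic polypeptide-led cells were few, and their values are given without a test. Somatostatin-led cells numbered 15, 25, 36, 7 and 39 in postpartum 1, postpartum 2, pregnant 1, pregnant 2 and the non-pregnant library. Their summed levels were 14628 and 17591 CPM postpartum, 5039 CPM in pregnant 1 and 6522 CPM non-pregnant. The value of 84906 CPM in pregnant 2 came from 36 UMIs, of which 35 were Nfkbia UMIs in 1 cell. Pancreatic polypeptide-led cells, 13, 21, 35, 3 and 34 in the same order, had 8411, 10029, 3578, 11765 (1 UMI) and 5128 CPM. The 8411 CPM of postpartum 1 rested on 9 UMIs, with a counting interval of 3846 to 15967 CPM that includes the non-pregnant value. Leaving pregnant 2 aside, the postpartum libraries were the highest in all 4 classes, and the gap was narrower in these 2 small classes than in insulin-led cells.

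**Figure D3:**
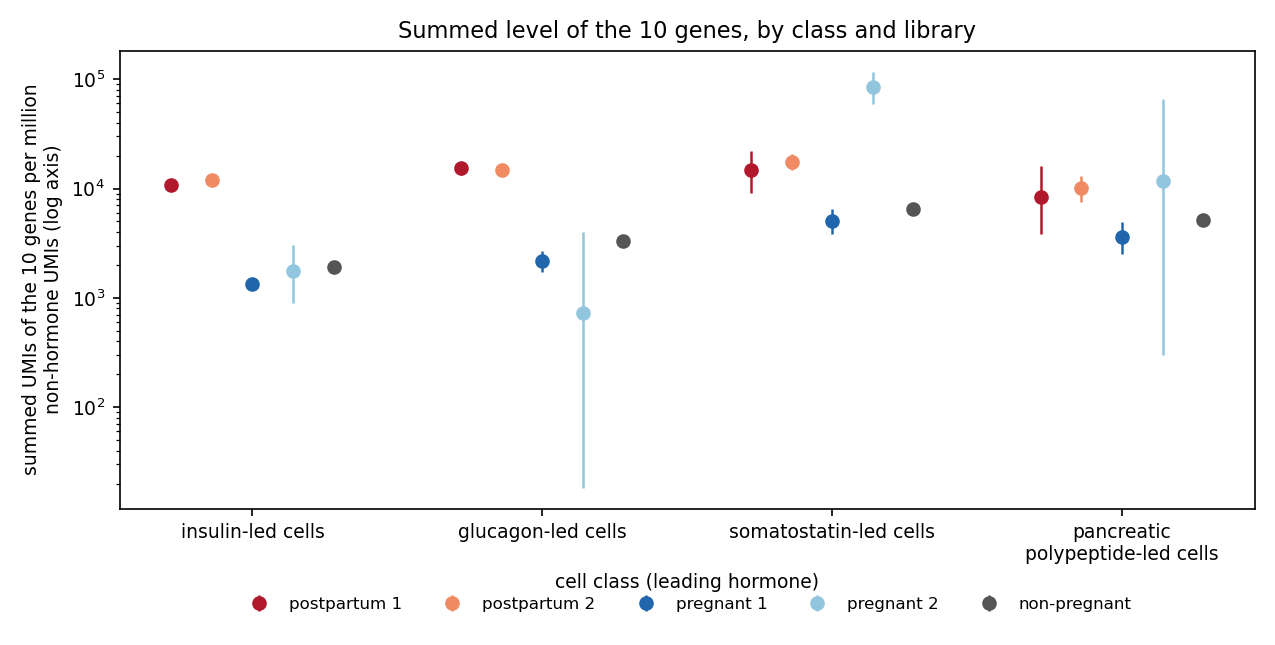
Summed level of the 10 genes in each hormone class, in UMIs per 1000000 non-hormone UMIs on a log axis, with 1 point per library and exact 95% counting intervals as bars. In insulin-led and glucagon-led cells the postpartum libraries lie between 10699.9 and 15356 CPM, above the other 3, and the 84906 CPM of pregnant 2 in somatostatin-led cells rests on 1 cell.

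Of 38 further immediate early genes, 25 were among the shared genes, 13 passed the filter without pregnant 2 and 4 were called higher in postpartum than in pregnant insulin-led cells. Without the filter 0 of the 25 were called (7 at an unadjusted p under 0.05), and 24 of their differences were above 0, with a median of 0.77 beside -0.08 over all genes. The called genes below other than Zfp36 and Btg2 averaged under 100 CPM over pregnant 1 and the non-pregnant library and passed the filter only through the postpartum libraries. In the filtered fit Socs3, a feedback inhibitor of cytokine signalling, differed by 1.91 ± 0.44 (adjusted p = 0.00126) and Zfp36, which destabilizes mRNAs, by 1.79 ± 0.45 (0.00552). Ppp1r15a, a stress-induced phosphatase subunit, differed by 1.78 ± 0.45 (0.00552) and Klf6, a zinc finger factor, by 1.69 ± 0.44 (0.00758). Socs3 stood at 280 and 464 CPM postpartum, 22.9 CPM in pregnant 1, 0 UMIs in pregnant 2 and 109 CPM in non-pregnant cells. Against the non-pregnant library 4 of the 13 were called higher postpartum: Klf6 (1.74 ± 0.44, adjusted p = 0.00229), Ppp1r15a (1.64 ± 0.45, 0.00645), Gadd45b (1.55 ± 0.51, 0.0402) and Btg2 (1.37 ± 0.46, 0.046). Without the filter 0 of the 25 were called there too, 9 having an unadjusted p under 0.05. With all libraries limma called 0 of the 12 tested in either comparison, 5 at an unadjusted p under 0.05 against pregnant and 0 against non-pregnant cells.

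Of 23 MAP kinase pathway genes 6 were tested without pregnant 2 and 1 was called, the phosphatase Dusp1, which is itself rapidly induced (1.52 ± 0.45, adjusted p = 0.0341). Dusp1 had 534 and 453 CPM postpartum, 107 CPM in pregnant 1, 0 UMIs in pregnant 2 and 96.5 CPM non-pregnant. Against the non-pregnant library Dusp1 was called too (1.59 ± 0.45, adjusted p = 0.00863). Without the filter it was not called in either comparison (adjusted p = 0.697 and 0.247). None of 6 tested CREB and ATF factors or AP-1 partners was called by limma, 1 having an unadjusted p under 0.05. Atf4, a mediator of the integrated stress response, differed by 0.45 ± 0.45 (adjusted p = 0.911) and Atf5 by -1.07 ± 0.45 (0.272). Of 18 genes of the NF-κB pathway, only 3 were tested and 0 were called, 1 having an unadjusted p under 0.05. Tnfaip3, which like Nfkbia is an NF-κB target and inhibitor, differed by 1.37 ± 0.55 and Nfkb1, a subunit of NF-κB, by 0.19 ± 0.46. Tnfaip3 averaged 11.2 CPM over pregnant 1 and the non-pregnant library, so it passed the filter only through the postpartum libraries.

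Of 15 heat shock and ubiquitin genes listed as markers of dissociation stress, 12 were tested. Between postpartum and pregnant insulin-led cells 0 of the 12 were called with all libraries (3 at an unadjusted p under 0.05) and 4 without pregnant 2. Without pregnant 2 and without the filter 0 of the 15 were called (5 at an unadjusted p under 0.05), and 14 of the differences were above 0, with a median of 0.60 beside -0.08 over all genes. In the filtered fit Hspa1b and Hspa1a, which encode inducible HSP70, differed by 2.16 ± 0.45 and 2.14 ± 0.44, each with adjusted p = 0.0002, and both passed the filter only through the postpartum libraries. Ubb, which encodes ubiquitin, differed by 1.36 ± 0.33 (adjusted p = 0.00246). Hspa1a had 330.4 and 443 CPM postpartum, 9.52 CPM in pregnant 1, 0 UMIs in pregnant 2 and 50.6 CPM non-pregnant. Against the non-pregnant library 1 of the 12 was called with all libraries and 4 without pregnant 2, among them Ubb by 5.27 ± 0.33 (adjusted p = 7.23e-53), Hspa1b by 1.88 ± 0.45 (0.00095) and Hspa1a by 1.68 ± 0.44 (0.00399). Ubb was the 1 gene called with all libraries and the 1 gene called without the filter (adjusted p = 0.000641). It had 11005 and 12074 CPM postpartum, 4433 and 5963 CPM in the pregnant libraries and 201 CPM non-pregnant, so for it the non-pregnant library stood alone. The part of dissociation in the levels of the 10 genes was not tested.

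Of 10 genes listed as housekeeping, 7 were tested. Without pregnant 2 B2m, a subunit of MHC class I, fell in postpartum insulin-led cells, to 280 and 340.1 CPM against 2350 CPM in pregnant 1, 2472 CPM in pregnant 2 and 2152 CPM in non-pregnant cells (-2.58 ± 0.45 against pregnant, adjusted p = 2.74e-06). Against the non-pregnant library B2m fell by 2.46 on the log2 scale and Rpl13a, a ribosomal protein gene, rose by 2.46. Rpl13a was not called higher over pregnant cells, with or without pregnant 2. Without the filter 0 of 8 were called in either comparison, with adjusted p = 0.141 and 0.0521 for B2m.

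The 5 genes outside the set whose levels most resembled the mean of the 10 were sought over 8 pools, the insulin-led and glucagon-led cells of every library other than pregnant 2, among 2387 genes. They were Ppp1r15a (Pearson r = 0.977), Hspa1b (0.971), Hspa1a (0.966), Meg3 (0.965) and Klf6 (0.962), values that describe 8 pools from 4 libraries and carry no test. Meg3, a maternally expressed long non-coding RNA, had 4931 and 6168 CPM in postpartum insulin-led cells, 2013 CPM in pregnant 1 and 1900 CPM in non-pregnant cells. In glucagon-led cells Meg3 had 7796 and 10050 CPM postpartum, 2131 CPM in pregnant 1 and 1877 CPM non-pregnant. Its levels thus stood highest in the postpartum libraries in both classes.

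In single cells the postpartum excess was spread over many cells, but not evenly. To compare libraries of unequal depth, each insulin-led cell was thinned to 100 non-hormone UMIs and shallower cells were left out, which kept 158, 763, 1731, 14 and 680 cells of postpartum 1, postpartum 2, pregnant 1, pregnant 2 and the non-pregnant library. At this depth 52.5% (exact interval 44.4 to 60.5) and 52.8% (49.2 to 56.4) of postpartum cells held a UMI of at least 1 of the 10 genes, against 11.7% (10.2 to 13.3) in pregnant 1 and 16.8% (14.0 to 19.8) in non-pregnant cells. Pregnant 2 had 0 of 14 cells, which allows a share of up to 21.4%. Unthinned, the shares were 46.3%, 69.2%, 27.0%, 3.31% and 80.3% in library order, at median depths of 89, 181, 245, 52 and 1322 non-hormone UMIs. The non-pregnant library, the deepest, was highest without thinning. Gcg transcripts, whose sources were not told apart, were found in 28.1%, 75.1%, 83.0%, 14.9% and 92.9% of these cells without thinning.

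Cells with several of the genes made up a larger share of the postpartum libraries. After thinning, 19.6% and 21.6% of postpartum insulin-led cells held 2 or more of the 10, against 0.635% in pregnant 1 and 2.06% in non-pregnant cells. Cells with 3 or more made up 11.4% and 8.13% postpartum, 0% in pregnant 1 and 0.294% in non-pregnant cells. The largest number in a cell was 5 and 6 postpartum, 2 in pregnant 1 and 3 in non-pregnant cells. UMIs of the 10 genes per cell had a variance over mean of 2.54 and 2.15 postpartum, 1.15 in pregnant 1 and 1.16 in non-pregnant cells. The means themselves were 1.101 and 1.131 UMIs postpartum, 0.132 in pregnant 1 and 0.197 in non-pregnant cells. Because the means differed as well, these ratios do not tell whether the UMIs were spread less evenly over postpartum cells.

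Gene by gene the thinned shares followed the pooled levels. Jun was found in 16.5% and 17.0% of postpartum insulin-led cells, 1.79% of pregnant 1 cells and 2.21% of non-pregnant cells. Fosb was found in 12% and 13.4% of postpartum cells, in 0 of 1731 cells of pregnant 1, which allows a share of up to 0.173%, and in 0.294% of non-pregnant cells. Nfkbia was found in 12.7% and 15.7% postpartum, 1.5% in pregnant 1 and 1.76% in non-pregnant cells. For these genes the postpartum shares were at least several times those elsewhere. Jund was found in 3.16% and 0.262% of postpartum cells, 2.83% of pregnant 1 cells and 3.38% of non-pregnant cells, with no separation of the groups. Glucagon-led cells had 59.6% and 68.4% of cells with at least 1 of the 10 postpartum, 17.9% in pregnant 1 and 29.8% in non-pregnant cells, at the same thinned depth.

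**Figure D4:**
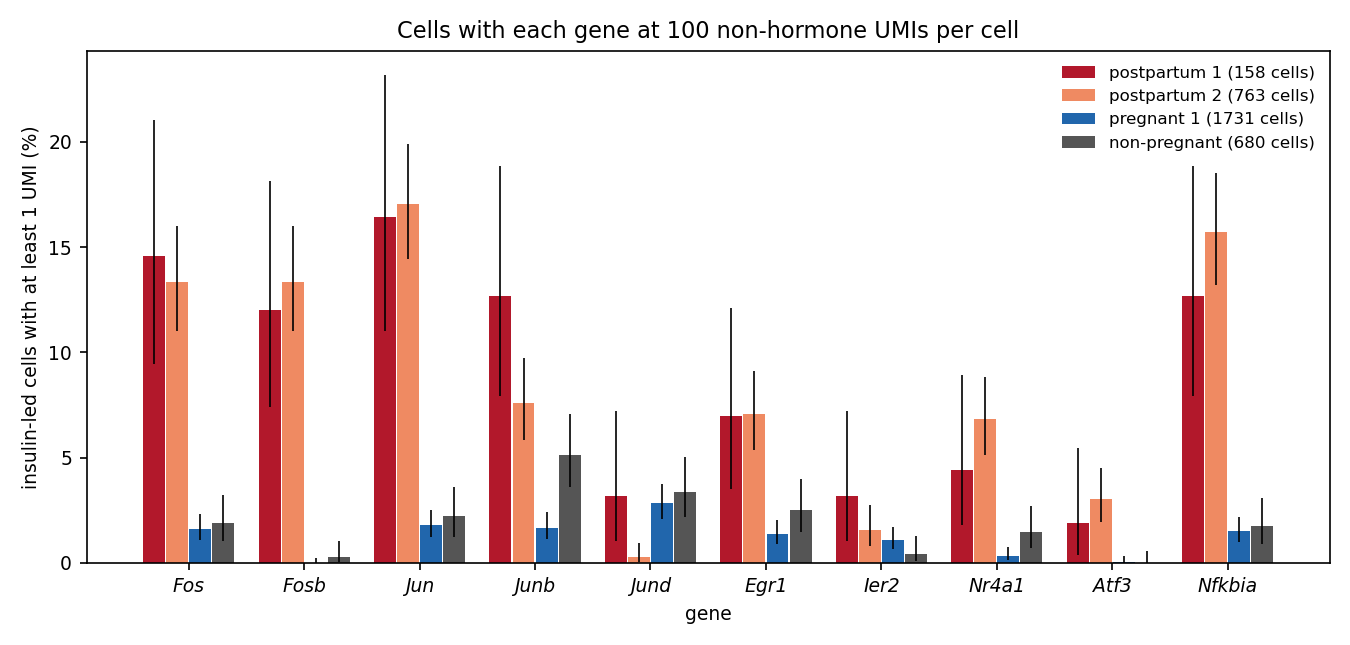
Share of insulin-led cells with a UMI of each gene after thinning each cell to 100 non-hormone UMIs, in percent, with exact 95% intervals, for postpartum 1, postpartum 2, pregnant 1 and the non-pregnant library. Pregnant 2 is not drawn because 14 of its cells reached this depth; Fosb reaches 12% and 13.4% in the postpartum libraries, against 0% in pregnant 1.

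The genes were found together in the same cells of postpartum 2 more often than the product of their shares. In the 763 thinned insulin-led cells of postpartum 2, 25 of the 45 pairs had a product of shares of 3 cells or more, and 22 of them were seen together in more cells than that, with a median ratio of 1.52. These ratios describe cells of 1 library and carry no test. Nr4a1 and Nfkbia had the highest ratio, 2.32: Nfkbia was in 36.5% of cells with Nr4a1 and in 14.2% of cells without it. Fosb and Jun had a ratio of 1.84, with Jun in 31.4% of cells with Fosb and 14.8% of cells without it. Fos and Jun, the classical AP-1 pair, had a ratio of 1.44, with Jun in 24.5% of cells with Fos and 15.9% of cells without it. The 3 pairs under 1 were Fos with Fosb (0.733, 10 cells seen against a product of 13.6), Fos with Atf3 (0.976) and Fosb with Atf3 (0.976). Fos and Fosb, which were both high in postpartum 2 as a whole, were thus seen together in no more cells than the product of their shares at this depth. Without thinning, all 39 pairs with a product of 3 cells or more lay above it in this library, Fos with Fosb among them.

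Postpartum 1 had 4 pairs with a product of 3 cells or more, and all 4 lay above it, with a median of 2.04. Jun and Nfkbia had the highest ratio there, 2.43, with Nfkbia in 30.8% of cells with Jun and in 9.09% of cells without it. Fos and Jun had a ratio of 1.85. No pair reached a product of 3 cells in the thinned cells of pregnant 1 or the non-pregnant library. Without thinning, 11 of 12 such pairs in postpartum 1 (median 1.99) and 39 of 39 in postpartum 2 (median 1.74) lay above the product. So did 11 of 13 in pregnant 1 (median 1.48) and 28 of 31 in non-pregnant cells (median 1.33). In such unthinned counts, cells that were deeper have more of every gene. In glucagon-led cells of postpartum 2, 6 of 12 pairs lay above the product after thinning. Their median was 1.06, with a range of 0.263 to 2.66, so these pairs as a set showed no clear excess of joint detection.

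**Figure D5:**
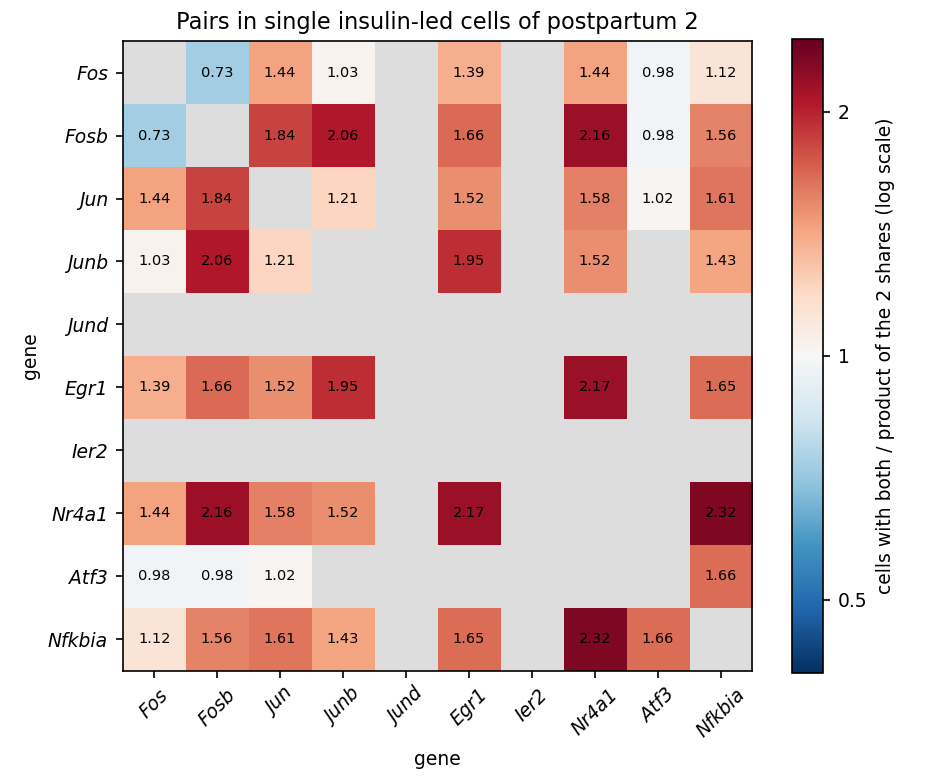
Ratio of the number of insulin-led cells of postpartum 2 with both genes to the number given by the product of their shares, for each pair of the 10 genes after thinning to 100 non-hormone UMIs. Grey cells are the diagonal and pairs with a product under 3 cells; the ratios run from 0.733 for Fos and Fosb to 2.32 for Nr4a1 and Nfkbia.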

How the data were processed

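Single-cell inDrop libraries of dissociated islets were analysed, 2 postpartum, 2 pregnant and 1 non-pregnant. Per the submitters' processing notes, Partek 8.0 and Bowtie 1.1.1 were used with builds GRCm38 and mm10, with no role given. Not given in the sources used here are the counter, the annotation and any cell filter. The authors deposited the non-pregnant library as a linear signal that sums to 3024 in each cell over 40930 features. They deposited the other 4 libraries as log2 of values per 1000000 plus 1 over 6695 features. UMIs were recovered as whole multiples of each cell's smallest value (100% within 0.1 of a whole number), and in 9 cells of pregnant 2 that smallest value was above 1 UMI. Features were matched by symbol (6543) or synonym (83), 54 were unmatched, and 7 hormones were left out of the denominator.

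All deposited cells were kept, no doublet caller was run, and a cell went to the class of its largest hormone. The deposited values are normalized, so limma 3.58.1 in R 4.3.3 with a trended prior was used on log2(CPM + 100), for genes that averaged 100 CPM or more, in 1 fit over 3 groups. Calls were made two-sided at an adjusted p under 0.05 (Benjamini-Hochberg). The single non-pregnant library was given the same spread as the other groups, and nothing says that libraries of a group came from separate animals, so p-values measure the spread between these libraries, which may be technical. The prior had infinite weight in the filtered insulin-led fits. In the fits without pregnant 2, pregnant 1 alone stands for pregnancy. In those comparisons of states only the postpartum group has replicates, so the spread comes from postpartum 1 and postpartum 2 alone. It holds no spread between pregnant or between non-pregnant libraries. Counting intervals are exact, at 95%, and a count of 0 is given the limit of 3 counts. Alternatives used edgeR 4.0.16 and DESeq2 1.42.0 on the recovered UMIs, other constants, filters, cell classes and denominators, the replicate numbers as a block, and each library left out. The scripts were tested on simulated data. Python 3.11.15, numpy 2.4.6, scipy 1.17.1, pandas 2.3.3 and matplotlib 3.10.9 were used for the rest.

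The 10 genes and the other gene lists were chosen with earlier results of these data known. Named were the 10 genes, from each list the called genes with the widest difference (up to 4 in each direction, or up to 3 of the highest level where none was called), and the 5 genes most like the mean of the 10; 1 gene so chosen is not reported here. Same-numbered pregnant and postpartum libraries deviated from their group means with a correlation of 0.0109 over 2198 genes, and the labels give the numbers no other meaning, so the main comparisons are unpaired.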

Additional observations from a re-analysis of the deposited data

Results flagged for a closer look

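The non-pregnant library lists 13 further immediate early genes that the other 4 libraries do not list, so no comparison could use them. Each was counted there above 3 counts, the limit that a count of 0 allows. Over its 847 cells, Fosl1, an AP-1 subunit, had 15 UMIs. The Egr1 relatives Egr2, Egr3 and Egr4 had 14, 10 and 5 UMIs, and the Nr4a1 relative Nr4a3 had 10 UMIs. Ier5l had 18 UMIs, Klf2 had 4, and the mRNA-destabilizing factors Zfp36l1 and Zfp36l2 had 39 and 80. Cyr61 and Ctgf, secreted matrix-associated proteins, had 25 and 52 UMIs, Per1, a clock gene, had 71 and the kinase gene Sik1 had 17. Their levels in postpartum and pregnant cells are not analysed here.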

How the results depend on the processing

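Depth limits the pregnant group most: pregnant 2 had 6876 non-hormone UMIs in insulin-led cells, where 0 UMIs allow up to 436 CPM, and pregnant 1 is otherwise the only pregnant library. The fits that leave out pregnant 2 together with another choice were chosen after seeing the data.

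In insulin-led cells, postpartum against pregnant, the number of genes called was 2, and it ran from 1 to 1742 when 1 library was left out, 1742 without pregnant 1, 60 without pregnant 2, 1 without either postpartum library and 5 without the non-pregnant library. It was 0 with edgeR (90 at an unadjusted p under 0.05), DESeq2 (110), all UMIs as denominator or at least 100 UMIs per cell, 6 with no filter and 10 with all cells. Of the 10 genes 0 were called, and 0 to 9 when 1 library was left out, 9 without pregnant 1 and 8 without pregnant 2. The fit without pregnant 1 called 1742 genes over all, and its number of tested genes is not given here. Its 9 are therefore not read as an excess over the other genes. The same holds in either class for the other fits of this section, edgeR included, whose number of tested genes is not given. With pregnant 2 left out, the genes called and those of the 10 among them were 60 and 7 with a constant of 10, 61 and 7 with the leading hormone at 90% or more, 52 and 6 with all UMIs as denominator, 116 and 8 with edgeR, and 0 and 0 with no filter. Jund, at 0.60 with all libraries, ran from -0.34 without pregnant 2 to 1.54 without pregnant 1, and with pregnant 2 left out it turned to -0.53 with a constant of 10, -0.32 with the leading hormone at 90%, -0.49 with all UMIs, -0.34 with no filter and -0.59 with edgeR. No other of the 10 changed direction in this comparison or against the non-pregnant library: of 202 values 151 kept their side of the threshold, 45 came past it and 6 reversed, and of 182 values against the non-pregnant library 138 kept their side and 44 came past it.

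Postpartum against non-pregnant, the 7 genes called became 3 to 164 when 1 library was left out (164 without pregnant 1, 159 without pregnant 2, 4 without postpartum 1 and 3 without postpartum 2), 3 with a constant of 10, 1 with edgeR (126 unadjusted), 1 with all UMIs, 0 with at least 100 UMIs per cell and 4 with DESeq2 (97 unadjusted). Of the 10 genes, 0 to 7 were called with 1 library left out, 7 without either pregnant library. With pregnant 2 left out, the genes called and those of the 10 were 138 and 6 with a constant of 10, 159 and 8 with the leading hormone at 90%, 184 and 5 with all UMIs, 360 and 7 with edgeR, and 29 and 4 with no filter. Pregnant against non-pregnant, the 3 genes called became 2 to 1581 with 1 library left out (1581 without pregnant 1, 48 without pregnant 2), 0 with edgeR or at least 100 UMIs per cell, 5 with a constant of 500 or no filter, and 1 with all UMIs. With pregnant 2 left out they were 38 with a constant of 10, 49 with the leading hormone at 90%, 49 with all UMIs, 153 with edgeR and 2 with no filter. With 1 library left out, the most of the 10 genes were likewise called without pregnant 1, where the most genes were called over all.

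In glucagon-led cells, postpartum against pregnant, 1 gene was called, 1 to 852 with 1 library left out (852 without pregnant 1), 3 with a constant of 10 and 0 with edgeR, and 0 to 8 of the 10 genes (8 without pregnant 1). Postpartum against non-pregnant, 4 became 1 to 4 with 1 library left out (2 without pregnant 1, 1 without either postpartum library), 1 with the mean over cells and 0 with edgeR. Pregnant against non-pregnant, 2 became 0 to 469 with 1 library left out (469 without pregnant 1, 0 without either postpartum library), 1 with a constant of 10, 0 with the mean over cells, the leading hormone at 90% or edgeR, and 0 to 5 of the 10 genes (5 without pregnant 1). Between the classes, 0 became 0 to 194 with 1 library left out (194 without pregnant 2), and 16 with no library block. For the class difference postpartum against pregnant, 0 became 0 to 705 (705 without pregnant 1, 1 without pregnant 2), and 0 to 3 of the 10 genes (3 without pregnant 1).

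The replicate block was fitted although the pairing is not given by the labels. It called 1 gene in insulin-led and 3 in glucagon-led cells between postpartum and pregnant, 0 for the class difference, and 0 of the 10 genes in each. Thinned to 50 UMIs, the shares of insulin-led cells with at least 1 of the 10 genes were 33.1% and 38.4% postpartum, 6.67% in pregnant 1 and 8.24% in non-pregnant cells. The cause of these changes was not tested.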
